A study of Mus musculus with 6 samples.

Results

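Tripartite motif (Trim) genes were compared between YFP-positive cells of TKO and THC mice. The members were all rows of the authors' deposited table whose symbol starts with Trim and a digit, 69 of its 55487 genes. Of these, 44 reached a normalized count of at least 10 in at least 3 of the 6 libraries and were tested, among 17278 genes tested in all. The question was which members moved with the interferon response of these cells and which did not.

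Cells were sorted by FACS from the subventricular zone (SVZ), the neurogenic niche along the lateral ventricles of the adult mouse brain. TKO samples were Rb(F/F), p107(-/-) and p130(F/F), and THC samples were Rb(F/+), p107(+/-) and p130(F/+), with 3 samples each. Both carried NestinCreERT2 and the R26 EYFP reporter on a C57BL/6;Sv/129 background, so the recombined alleles of Rb and p130 and the YFP mark arise only in cells in which the Nestin-driven Cre was active, whereas the p107 allele is altered in every cell of the animal. All mice, THC included, received tamoxifen by gavage at 6 to 10 weeks of age, with a daily dose of 200 mg/kg over 5 days, and tissue collection followed after 10 days. Each sample pooled several mice to at least 200000 YFP-positive cells, and the series calls the samples biological replicates. The February batch held TKO 1 and THC 1, and the November batch held TKO 2, TKO 3, THC 2 and THC 3.

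TRIM proteins share an N-terminal RING, B-box and coiled-coil arrangement, and most are ubiquitin ligases whose C-terminal part chooses the substrate. Many members act in innate immunity, where they bind viral proteins or tune the signalling of RNA and DNA sensors, and some of these genes are themselves induced by interferon through an interferon-stimulated response element (ISRE). Other members have roles in chromatin silencing, in axons and synapses, or at the centrosome.

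Assigned reads numbered 15536084 to 16961817 per library. The p107 gene Rbl1 was at 42.0, 18.3 and 14.5 in TKO and at 520.2, 497 and 646 in THC, so all 6 libraries matched their p107 labels. Rb1 was at 3350, 3573 and 2877 in TKO and 2022, 1631 and 1895 in THC (log2 change 0.82, adjusted p = 0.00066), and Rbl2, the p130 gene, did not pass (-0.13, adjusted p = 0.54). The floxed part of these genes is not given in the labels, so their counts check neither recombination nor the label. Markers of neural stem and progenitor cells were present in all libraries (summed normalized count 119223 to 143835 in TKO and 72422 to 127444 in THC). All 12 proliferation markers were higher in TKO, and 9 of 10 endothelial and 9 of 10 oligodendrocyte markers were lower. In bulk libraries such as these, fewer cells of a type and less RNA per cell cannot be told apart.

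The interferon response was described with 51 interferon-stimulated genes outside the Trim family. Of these, 50 were tested, 47 were higher in TKO, none was lower and 3 did not pass (Dhx58, Sp100 and Adar), with a median log2 change of 1.88. Of all genes tested, 14.3% were higher and 13.6% were lower, 27.9% together. Changes here are log2 differences, TKO over THC, from limma on log2(normalized count + 1) with a batch term, and a gene passed at a Benjamini-Hochberg adjusted p under 0.05 over all genes tested. This scale understates the change of low genes. The levels of the response differed between libraries of a genotype as well. The mean log2 level of the 50 genes was 9.12, 9.13 and 9.63 in TKO 1, TKO 2 and TKO 3, against 7.12, 7.65 and 6.998 in THC 1, THC 2 and THC 3. TKO 3 was thus the highest TKO library and THC 2 the highest THC library.

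Promoter sequence showed which members carry an ISRE next to their start. RefSeq promoter windows (GRCm38.p6, 250 bases before the start to 50 after it) existed for 33 of the 44 tested members, in 45 windows. The ISRE was searched on both strands as GAAA, any 2 bases and GAAA again, which reads TTTC, 2 bases and TTTC on the other strand. It was present in 10 of the 45 windows, against 3.44% of 32851 windows of all genes. These windows belonged to 9 members. The matches are given with 10 bases on each side where the window allowed, because they group the members by sequence. They are in the direction of the gene, 5′ to 3′, with the letters of the ISRE in capitals.
Trim30a, chr7:104446104-104446133, minus strand: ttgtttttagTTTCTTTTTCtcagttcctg
Trim30a, chr7:104465210-104465239, minus strand: agttctttagTTTCTTTTTCtcagttcctg
Trim30d, chr7:104507871-104507900, minus strand: agttctttagTTTCTTTTTCtcagttcctg
Trim12c, chr7:104353359-104353388, minus strand: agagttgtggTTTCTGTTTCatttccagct
Trim12a, chr7:104315466-104315495, minus strand: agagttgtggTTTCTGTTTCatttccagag
Trim5, chr7:104288136-104288165, minus strand: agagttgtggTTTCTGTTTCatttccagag
Trim34a, chr7:104244457-104244486, plus strand: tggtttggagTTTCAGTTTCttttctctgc
Trim21, chr7:102565444-102565479, minus strand: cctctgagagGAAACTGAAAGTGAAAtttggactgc
Trim26, chr17:36836976-36837011, plus strand: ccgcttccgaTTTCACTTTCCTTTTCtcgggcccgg
Trim2, chr3:84212791-84212820, minus strand: tcagctttggTTTCCTTTTCtctaagacag
Both Trim30a windows and the Trim30d window held the same 10 letters, and the window at the distal start of Trim30a and that of Trim30d were identical over all 30 bases shown. Trim12c, Trim12a and Trim5 shared another set of 10 letters and the 10 bases before it. In Trim21 and Trim26 a pair of matches overlapped. Overlapping copies share letters and are not separate elements.

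Of the 12 tested members on a list of 16 Trim genes known as interferon-induced, 8 held an ISRE in their window, and of 21 tested members outside that list with a window, 1 did (Trim2). The match did not separate the members that were higher in TKO from those that were not. Among the 8 list members that were higher, 4 held the element (Trim30a, Trim30d, Trim12c and Trim21) and 4 did not (Trim25, Trim56, Trim6 and Trim34b), and the 4 list members that did not pass all held it. No window of a tested member held the gamma-activated sequence (GAS), searched as TTCCNGGAA (1.15% of all windows). A missing match says only that these letters are not in these 300 bases. The whole windows of the 5 list members with the highest mean counts among those that were higher in TKO, and of Trim47, which had the largest change among the members outside the list that passed, show this contrast. Capitals mark the ISRE, and windows without capitals hold none.
Trim30a, chr7:104465144-104465443, minus strand: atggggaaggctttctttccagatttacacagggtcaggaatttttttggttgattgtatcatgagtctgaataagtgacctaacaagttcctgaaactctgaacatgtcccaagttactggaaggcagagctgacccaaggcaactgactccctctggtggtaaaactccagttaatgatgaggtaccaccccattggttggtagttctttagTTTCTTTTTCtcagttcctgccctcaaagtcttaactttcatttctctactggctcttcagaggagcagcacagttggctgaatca
Trim12c, chr7:104353300-104353599, minus strand: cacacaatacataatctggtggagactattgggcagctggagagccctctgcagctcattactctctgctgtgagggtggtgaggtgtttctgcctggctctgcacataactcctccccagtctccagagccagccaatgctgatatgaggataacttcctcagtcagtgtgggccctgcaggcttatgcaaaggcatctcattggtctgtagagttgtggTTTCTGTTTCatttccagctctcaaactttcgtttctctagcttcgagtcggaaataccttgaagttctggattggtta
Trim21, chr7:102565433-102565732, minus strand: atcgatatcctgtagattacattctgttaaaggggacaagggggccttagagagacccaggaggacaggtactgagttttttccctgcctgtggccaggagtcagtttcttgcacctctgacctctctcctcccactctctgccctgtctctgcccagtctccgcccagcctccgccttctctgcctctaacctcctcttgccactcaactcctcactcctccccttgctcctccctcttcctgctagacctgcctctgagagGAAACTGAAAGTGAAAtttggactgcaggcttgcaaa
Trim25, chr11:88999153-88999452, plus strand: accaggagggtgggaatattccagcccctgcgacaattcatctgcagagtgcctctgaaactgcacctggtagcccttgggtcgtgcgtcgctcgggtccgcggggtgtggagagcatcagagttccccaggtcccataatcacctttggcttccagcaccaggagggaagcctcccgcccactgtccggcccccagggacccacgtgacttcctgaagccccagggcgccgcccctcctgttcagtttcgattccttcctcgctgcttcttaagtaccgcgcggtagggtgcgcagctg
Trim56, chr5:137116158-137116457, minus strand: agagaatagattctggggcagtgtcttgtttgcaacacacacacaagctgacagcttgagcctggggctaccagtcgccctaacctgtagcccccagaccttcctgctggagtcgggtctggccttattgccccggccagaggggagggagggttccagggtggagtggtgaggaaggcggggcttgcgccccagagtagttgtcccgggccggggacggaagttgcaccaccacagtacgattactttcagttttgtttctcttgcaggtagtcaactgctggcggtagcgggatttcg
Trim47, chr11:116110186-116110485, minus strand: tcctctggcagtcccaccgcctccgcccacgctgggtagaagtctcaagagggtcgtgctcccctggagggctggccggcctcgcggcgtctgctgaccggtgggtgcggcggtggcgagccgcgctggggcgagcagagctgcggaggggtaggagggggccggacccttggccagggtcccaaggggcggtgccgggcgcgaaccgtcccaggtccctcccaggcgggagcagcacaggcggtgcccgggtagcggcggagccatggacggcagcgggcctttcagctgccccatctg

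Of the 44 tested members, 12 were higher in TKO (14.3% of all genes tested were), 5 were lower (13.6%) and 27 did not pass. In 17 members every TKO library lay above every THC library (19.4% of all genes) and in 7 every TKO library lay below (19.5%, and 38.9% for both directions). The median log2 change of the tested members was 0.14, against -0.00032 over all genes tested. The counts differed between the interferon-induced list and the other members. Of the 12 tested members of the list, 8 were higher, none was lower and 4 did not pass, with a median of 1.29. Of the other 32 tested members, 4 were higher, 5 were lower and 23 did not pass, with a median of -0.10. The list was drawn up with results of these data known, and the difference between the lists was not tested. In the authors' deposited table the same 17 members had an adjusted p under 0.05, and no other member had.

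**Figure D1:**
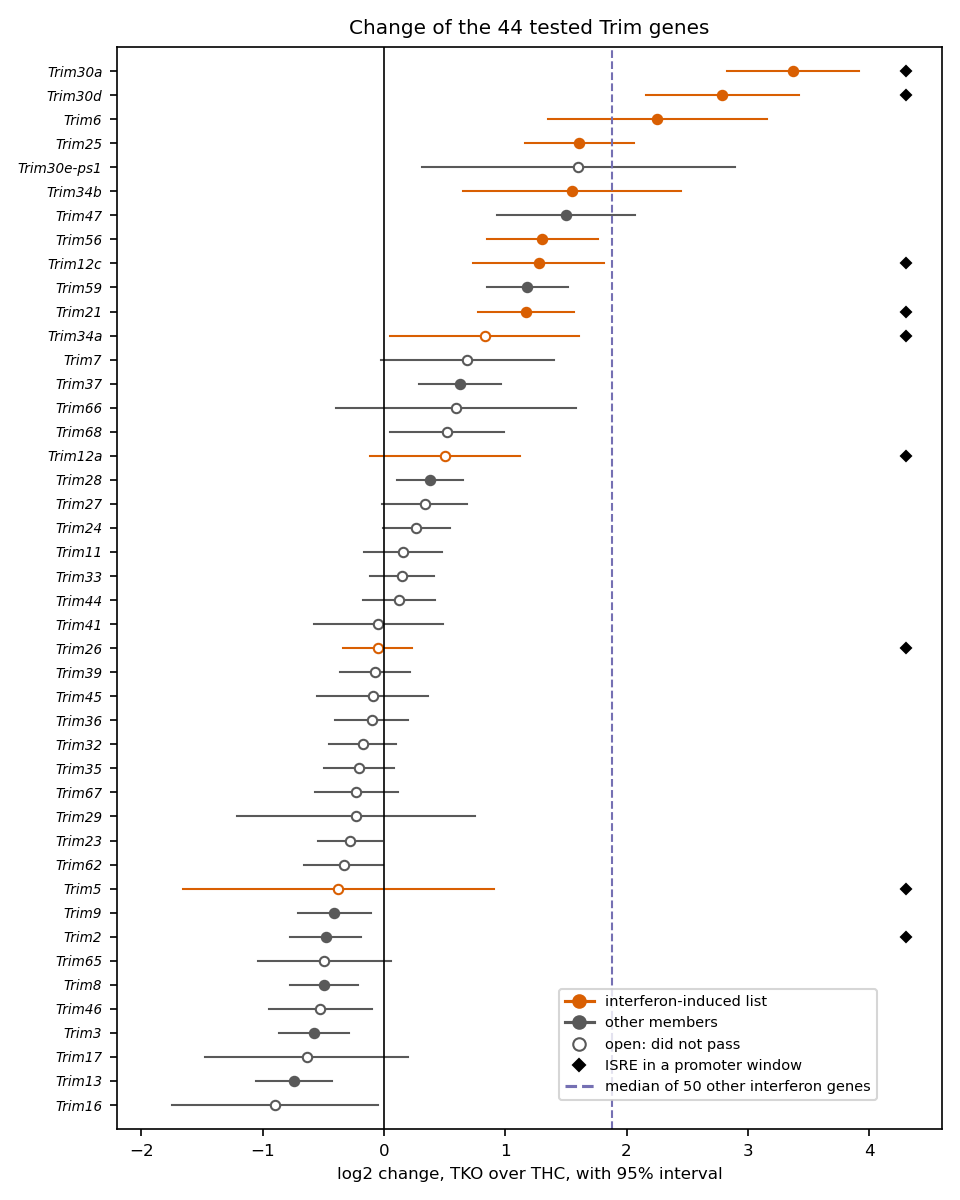
Log2 change (TKO over THC, log2(normalized count + 1)) of the 44 tested Trim genes with 95% intervals from limma; filled points passed, open points did not, orange marks the interferon-induced list, diamonds mark an ISRE in a promoter window, and the dashed line is the median of the 50 interferon-stimulated genes (1.88). Trim30a, Trim30d and Trim6 lay beyond that line, and list members also lay near 0 (Trim26 at -0.05).

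The largest changes were in the Trim30 genes. Trim30a, a mouse gene whose product restrains NF-kB signalling downstream of Toll-like receptors, was at 583, 485 and 799.7 normalized counts in TKO 1, TKO 2 and TKO 3, against 51.1, 78.4 and 48.5 in THC 1, THC 2 and THC 3. The groups were far apart, and the highest library of each genotype was the one with the highest interferon level. The log2 change was 3.37 (SE 0.25, adjusted p = 3.3e-06), a 10.3-fold difference. Trim30d, a neighbouring paralogue whose product restricts tick-borne flaviviruses in mouse cells, was at 214, 238 and 321 in TKO and at 38.1, 26.4 and 45.4 in THC. The 3 TKO libraries stood in the order of their interferon level, and the THC libraries did not (log2 change 2.79, SE 0.29, adjusted p = 2.6e-05). The genes share sequence: 5.98% of the 50-base windows of Trim30a transcripts occur in another gene (Trim30d), and 7.49% of those of Trim30d do.

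Trim6, whose product builds free ubiquitin chains that activate the kinase IKK-epsilon in interferon signalling, had a lower level per kilobase of exon in TKO than Trim30a and Trim30d (12.7 normalized counts per kb, against 151 and 68.5). It was at 31.2, 61.3 and 94.6 in TKO and at 6.01, 19.8 and 11.1 in THC. The groups did not overlap, and the spread within each genotype was wide. Its log2 change was 2.25 (SE 0.41, adjusted p = 0.0017). In both genotypes Trim6 had its highest value in the library with the highest interferon level.

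Trim25 encodes the ubiquitin ligase that modifies the RNA sensor RIG-I. Its values were 687, 658 and 664 in TKO and 263, 265 and 149 in THC (log2 change 1.61, SE 0.21, adjusted p = 0.00013). The TKO libraries hardly differed from each other, and TKO 3 was not the highest, unlike most of the interferon list. Ddx58, which encodes RIG-I, was at 607, 476 and 691 in TKO and 242, 209.7 and 126 in THC (1.65, SE 0.23, adjusted p = 0.00021). Sensor and ligase were thus both higher. Of 11 RIG-I and MDA5 signalling partners, 3 were higher (14.3% of all genes tested were) and none was lower (13.6%). The higher genes were Ddx58, the MDA5 gene Ifih1 (1.45) and the antiviral factor Zc3hav1 (2.08). Ddx58 and Ifih1 also belong to the interferon list, and the median log2 change of the 11 genes was -0.05. The adaptor gene Mavs (-0.05) and the kinase gene Tbk1 (0.02) did not pass, nor did Irf3 (-0.25).

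Trim21 encodes a cytosolic antibody receptor that directs antibody-bound virus to the proteasome. It was at 452, 418 and 551 in TKO and 243, 207 and 182 in THC, with no overlap (log2 change 1.17, SE 0.18, adjusted p = 0.00053). Trim56, whose product acts on the STING and double-stranded RNA routes, was at 274, 298 and 464 in TKO and 122, 138 and 146 in THC (1.31, SE 0.21, adjusted p = 0.00068). TKO 3 was the highest TKO library for both genes. Among THC libraries neither was highest in THC 2: Trim21 was highest in THC 1 and Trim56 in THC 3. Trim12c, a mouse relative of the primate retrovirus restriction factor TRIM5, was at 201, 208 and 332 in TKO and 102, 112 and 83.8 in THC (1.28, SE 0.25, adjusted p = 0.0024). It followed the interferon level in both genotypes: TKO 3 was its highest TKO library and THC 2 its highest THC library.

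Trim34b, a relative of Trim34a in the same cluster, had another pattern among libraries. It was at 62.5, 49.4 and 32.8 in TKO and at 27.1, 8.5 and 15.1 in THC, so TKO 3, the library with the highest interferon level, had the lowest TKO value. The log2 change was 1.55 (SE 0.41, adjusted p = 0.014), and without TKO 2 the call was lost (1.33, adjusted p = 0.079). Reads of this gene are uncertain, because 56.8% of its 50-base windows also occur in another gene, mostly Trim34a.

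**Figure D2:**
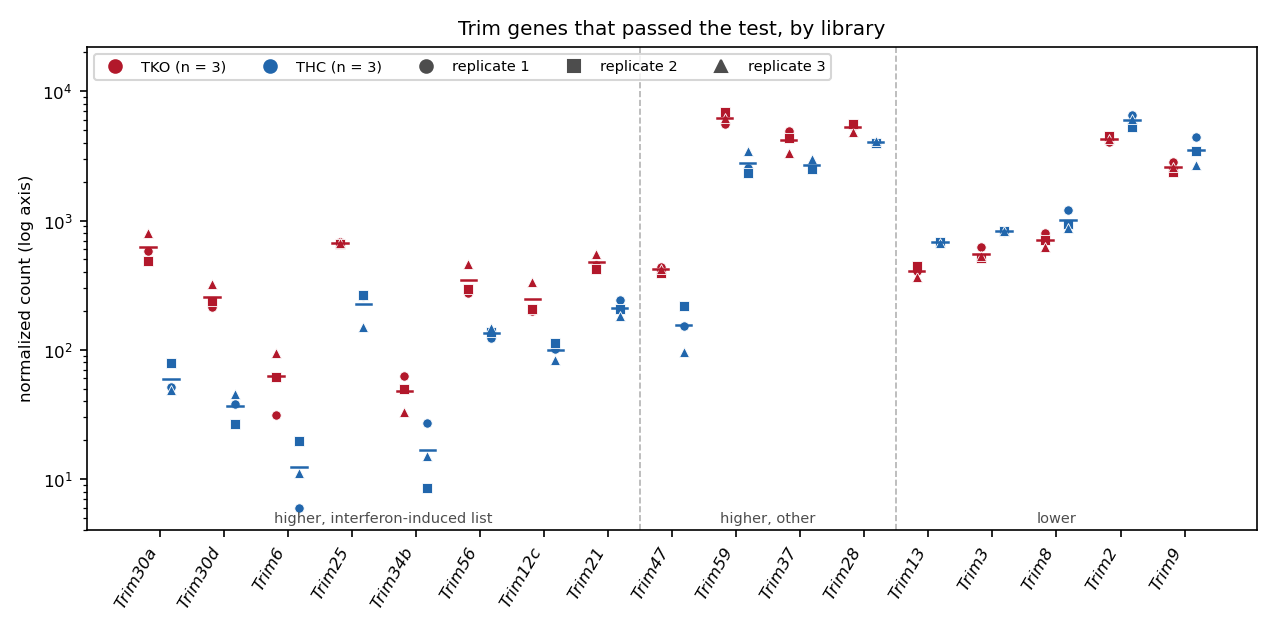
Normalized count (log axis) of the 17 Trim genes that passed, one point per library, with TKO (red) left of THC (blue), a bar at the mean of 3 libraries and the marker shape giving the replicate number. Trim30a has 485 to 799.7 in TKO and 48.5 to 78.4 in THC, and Trim9 is the one gene whose groups overlap.

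The other 4 tested members of the interferon-induced list did not pass. Trim26, whose product ends interferon induction by removing nuclear IRF3, was at 713, 676 and 668 in TKO and 659, 759 and 716 in THC. The groups overlapped, and the 95% interval of its log2 change (-0.05) was -0.34 to 0.24, below the median of the interferon list, and its window holds a pair of overlapping ISRE matches. Trim34a was at 99.5, 105 and 179.6 in TKO and 82.2, 96.3 and 41.4 in THC, a change of 0.83 with an interval of 0.05 to 1.61 (adjusted p = 0.11). Trim12a was at 137, 139 and 246 in TKO and 110.3, 159 and 92.9 in THC, a change of 0.50 with an interval of -0.11 to 1.12 (adjusted p = 0.22). Both had their highest TKO value in TKO 3 and their highest THC value in THC 2, as the interferon list had. Trim5 was at 10.7, 8.60 and 30.9 in TKO and 17.0, 34.9 and 11.1 in THC, and its interval (-1.66 to 0.90) spans a wide range in both directions. Shared sequence limits these genes, since 59.7% of the 50-base windows of Trim34a, 36.6% of those of Trim5, 33.7% of those of Trim12c and 10.5% of those of Trim12a occur in another gene.

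Most of these genes are neighbours. Between Trim6 and Trim30e-ps1 on chromosome 7 (chr7:104218793-104535361, GRCm38, 316.6 kb), 11 members lie side by side, in the mouse cluster that corresponds to the primate TRIM5 locus. Of 9 tested there, 5 were higher in TKO (Trim6, Trim34b, Trim12c, Trim30a and Trim30d), none was lower and 4 did not pass, against 14.3% higher and 13.6% lower over all genes tested. The changes ran from 3.37 for Trim30a to -0.38 for Trim5. Trim30b and Trim30c, which lie between Trim12c and Trim30a, stayed at or below 9.67 and 1.93 in every library and were not tested. Trim30e-ps1, a pseudogene at the end of the cluster, was at 20.5, 12.9 and 53.1 in TKO and 9.02, 4.72 and 9.09 in THC (1.60, SE 0.59, adjusted p = 0.064). All of its THC values were under 10, so it reached the filter only through its TKO values, and its change is given as a description. It is described here because of its place. Trim25, Trim56 and Trim21 lie elsewhere, on chromosome 11 (88999376 to 89020293), chromosome 5 (137105644 to 137116209) and chromosome 7 (102557921 to 102565486).

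**Figure D3:**
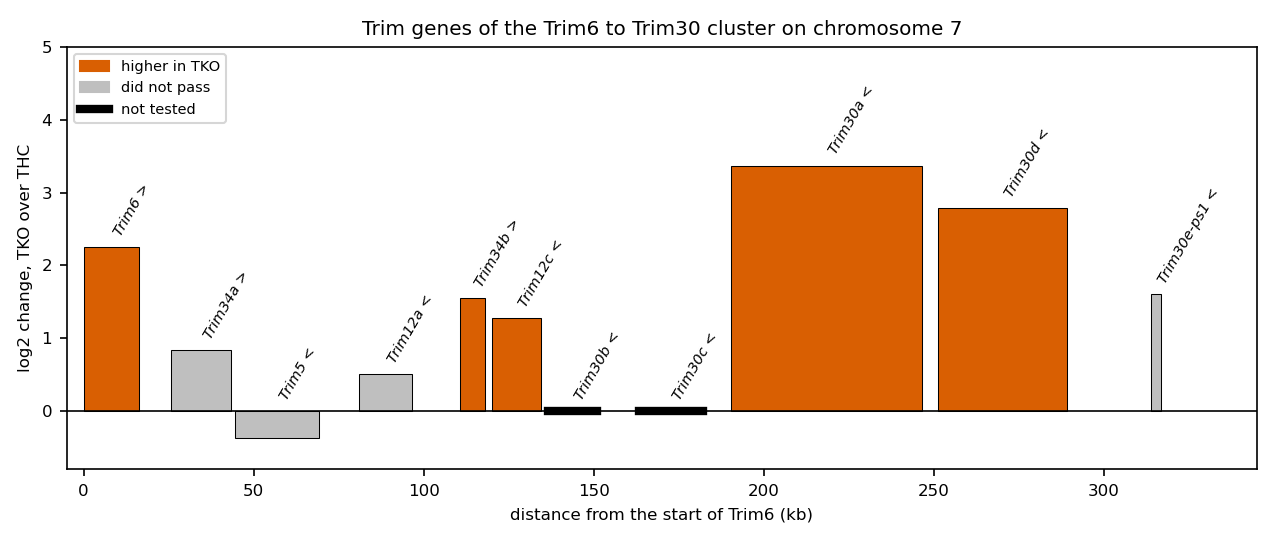
Genes of the chromosome 7 cluster drawn to scale by distance from the start of Trim6 (kb), with bar height giving the log2 change (TKO over THC); orange genes were higher, grey genes did not pass, black genes were not tested, and > or < gives the strand. The 5 higher genes lie among 4 that did not pass, and the 2 tallest bars, Trim30a (3.37) and Trim30d (2.79), are adjacent.

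Whether members followed the interferon level was also described among the libraries of a genotype. TKO 3 was the highest TKO library for 40 of the 50 interferon-stimulated genes (80.0%) and for 6 of the 8 higher members of the interferon-induced list, all but Trim25 and Trim34b. It was the highest TKO library for 0 of the 4 other higher members. Among all 2469 genes higher in TKO, 28.6% had their highest TKO value there, and among all genes tested 29.3%. Over all tested members the counts were 9 of 12 in the list and 5 of 32 outside it. THC 2, the highest THC library of the interferon list, was highest for 37 of 50 interferon-stimulated genes, for 4 of the 8 higher list members and for 1 of the 4 others, against 29.8% of all genes tested. The complete TKO order of the interferon list (TKO 3, then TKO 2, then TKO 1) held for 4 of the 12 higher members, Trim30d, Trim56, Trim6 and Trim12c, against 15.8% of all genes higher in TKO. TKO 1 and TKO 2 differed by only 0.01 in interferon level (9.12 and 9.13), so that order rests mainly on TKO 3. The complete THC order (THC 2, then THC 1, then THC 3) held for 4 of the 12, Trim30a, Trim25, Trim12c and Trim47, against 13.9% of all genes tested. With 3 libraries in a genotype no test was made, and the count by the highest library was chosen after seeing the data. These counts carry no batch term, and TKO 1 and THC 1 are the February libraries. In any comparison with them, batch and interferon level cannot be told apart.

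**Figure D4:**
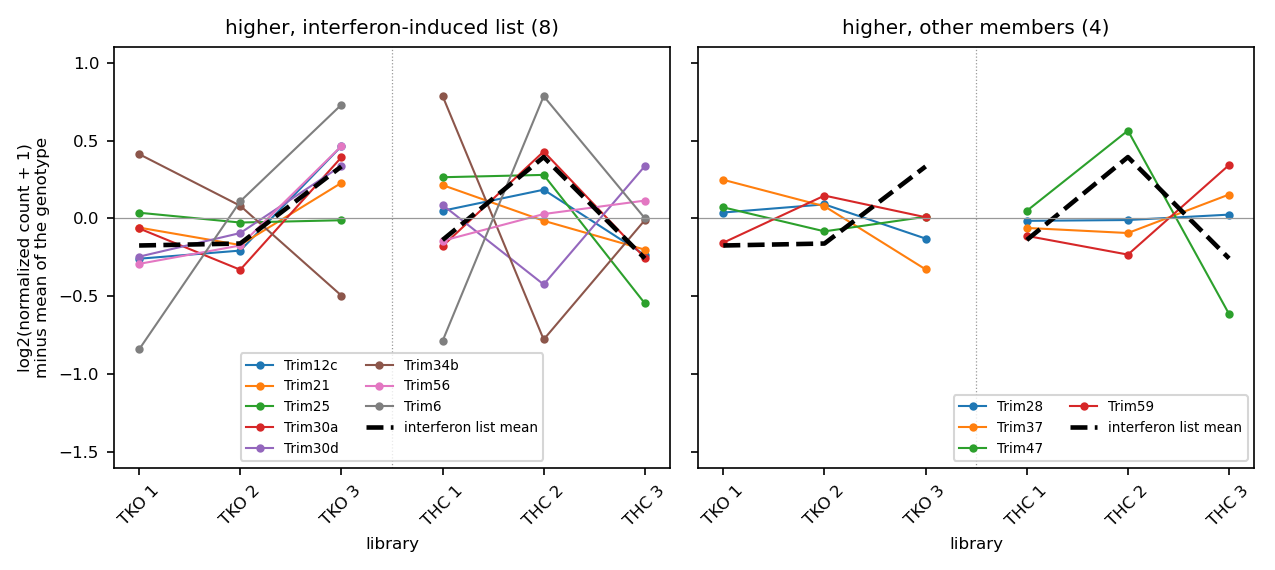
Deviation of each library from the mean of its genotype, on the log2(normalized count + 1) scale, for the 8 higher members of the interferon-induced list (left panel) and the 4 other higher members (right panel), TKO libraries left of THC libraries; lines join the values of a gene and the dashed line is the mean of the interferon list. TKO 3 is the highest TKO library for 6 of the 8 genes on the left and for 0 of the 4 on the right.

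Markers of microglia, cells with high expression of many immune genes, were examined too. Of 20 microglia and macrophage markers, 9 were higher in TKO (14.3% of all genes tested were) and none was lower (13.6%). Every TKO library lay above every THC library for 0 of the 20, against 19.4% of all genes tested. Their summed normalized count was 13560, 4493 and 3215 in TKO 1, TKO 2 and TKO 3 and 8713, 2995 and 2544 in THC 1, THC 2 and THC 3. The highest sum in each genotype was thus the February library. Of the higher interferon-induced list members, Trim25 and Trim34b were highest in TKO 1, which had the highest microglia sum among TKO libraries. Trim30a, Trim30d, Trim6, Trim56, Trim12c and Trim21 were highest in TKO 3, which had the lowest. Among THC libraries, Trim21 and Trim34b were highest in THC 1, and the others in THC 2 or THC 3. Of 10 markers of T, B and NK cells none was tested and 6 had no read in any library. The part of microglia in the changes of the Trim genes was not tested. Of 16 interferon ligand and receptor genes, 5 were tested, all of them receptors, and 6 had no read in any library. None was higher, and the type I receptor gene Ifnar2 was lower (575, 569 and 561 in TKO, 724, 741 and 738 in THC; log2 change -0.37, adjusted p = 0.0494).

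A further 4 members were higher in TKO and belong to no interferon list. Trim47, a ubiquitin ligase gene studied in human tumours, was at 440.2, 395 and 422 in TKO and 152, 218 and 95.9 in THC. The TKO libraries were close together, the THC libraries were more spread, and the groups did not overlap (log2 change 1.502, SE 0.26, adjusted p = 0.0011). Its exons overlap those of Trim65 on the same strand over 8.23% of their length, and Trim65 itself was at 73.2, 68.8 and 73.4 in TKO and 96.2, 103 and 105 in THC. Trim65 did not pass (-0.49, interval -1.04 to 0.05), and its values lay below those of THC in every TKO library.

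Trim59 was the most abundant member per kilobase of exon in TKO (1859 normalized counts per kb, against 828 in THC). It encodes a membrane-anchored ubiquitin ligase and was at 5577, 6875 and 6244 in TKO and 2531, 2329 and 3469 in THC (log2 change 1.18, SE 0.15, adjusted p = 0.00015). Its highest libraries were TKO 2 and THC 3, which were also the highest of their genotype in the summed count of the 12 proliferation markers (93836, 108479 and 92967 in TKO 1 to TKO 3, and 33021, 29498 and 45645 in THC 1 to THC 3). The part of proliferating cells in this change was not tested. The promoter window of Trim59 held the cell-cycle element CHR, searched as TTTGAA, which 17.9% of all windows hold. E2F elements, searched as TTTGGCGC, TTTCCCGC, TTTGCCGC and TTTCGCGC, were found in 1 of the 45 windows of tested members, that of Trim44 (2.27% of all windows), and in none of a member higher in TKO.

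Trim37, the gene mutated in human Mulibrey nanism, acts on histone H2A and on centriole number. It was at 4931, 4384 and 3311 in TKO and 2578, 2520.5 and 2991 in THC, and TKO 3, highest in interferon level, was the lowest TKO library. The log2 change was 0.63 (SE 0.15, adjusted p = 0.0096), with 0.94 in the February pair and 0.47 in November, and in a fit without TKO 1 or without THC 1 it did not pass (0.47, adjusted p = 0.087 and 0.094). Trim28 encodes KAP1, the corepressor that silences retroviral elements through zinc-finger proteins. It was at 5388, 5586 and 4798 in TKO and 3996, 4011 and 4108 in THC, a small change of 0.38 (SE 0.13, adjusted p = 0.041). The groups did not overlap, yet the call was lost in 5 of 6 fits that left out 1 library (adjusted p up to 0.19) and with edgeR (0.053). Of 9 partner genes in silencing, the heterochromatin protein genes Cbx5 (0.69) and Cbx1 (0.38) were higher and Chd3 (-0.51) was lower. The other 6 did not pass, and 27.9% of all genes tested passed in either direction.

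The 5 members that were lower in TKO had changes of -0.74 to -0.41. Trim13, which encodes a ligase anchored in the endoplasmic reticulum, was at 405, 446 and 367 in TKO and 688, 678 and 666 in THC (log2 change -0.74, SE 0.14, adjusted p = 0.0023). Trim3, which encodes a ligase of the postsynaptic density, was at 621, 516 and 530.2 in TKO and 817, 835 and 828 in THC (-0.58, SE 0.13, adjusted p = 0.0065). For both genes the THC libraries lay close together and above every TKO library. Shared sequence touches Trim13, since 14.2% of the 50-base windows of Trim13 also occur in Gm9359.

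Trim2, a relative of Trim3 with NHL repeats whose product ubiquitinates neurofilament light chain, was at 4043, 4543 and 4275 in TKO and 6572, 5315 and 6108 in THC (-0.48, SE 0.13, adjusted p = 0.018). Trim9, a brain-enriched ligase gene of netrin-guided axon branching, was at 2859, 2355 and 2597 in TKO and 4406, 3430.0 and 2704 in THC. TKO 1 and THC 3 overlapped, and the change of -0.41 (SE 0.14, adjusted p = 0.044) rested on THC 1 and THC 2. Trim8, whose product acts on cytokine signalling through SOCS1, was at 805, 708 and 626 in TKO and 1209.9, 947 and 875 in THC (-0.50, SE 0.13, adjusted p = 0.012). Without TKO 1 or THC 1 the calls of Trim2 (-0.37, adjusted p = 0.17 in each), Trim8 (-0.45, adjusted p = 0.065 and 0.068) and Trim9 (-0.30, adjusted p = 0.26 and 0.25) were lost. Trim8 also did not pass without TKO 3 (adjusted p = 0.053), and Trim9 passed in only 1 of 6 such fits, that without THC 3. Among neuronal markers, 6 of 10 neuroblast markers and 3 of 8 tested markers of mature neurons were lower, against 13.6% of all genes tested. None passed as higher, though for 1 mature neuron marker every TKO library lay above every THC library. The summed mature neuron markers were at 1332, 1369 and 1310 in TKO and 1929, 2897 and 2372 in THC. The part of neuronal cells in the lower Trim genes was not tested.

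**Figure D5:**
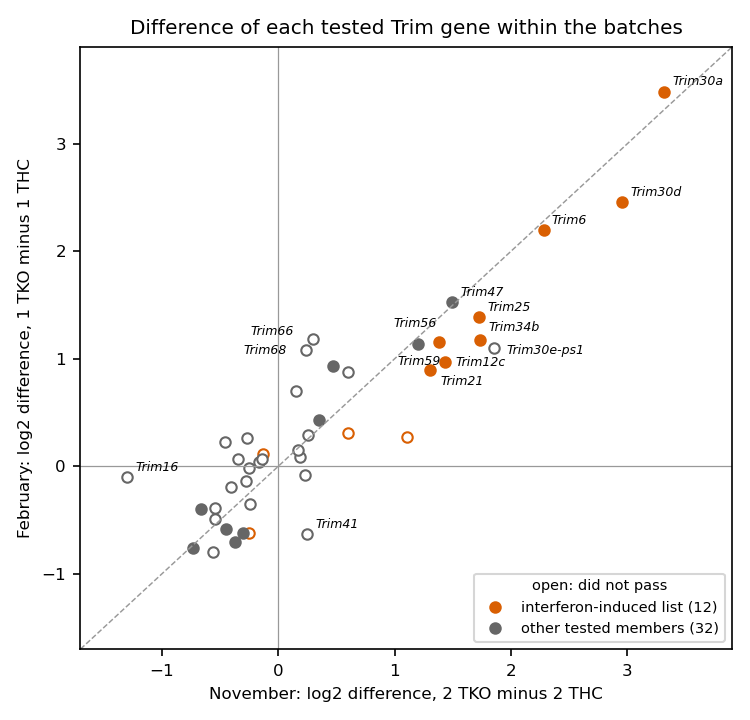
Log2 difference of the 44 tested Trim genes in the February batch (1 TKO minus 1 THC, y axis) against the November batch (mean of 2 TKO minus mean of 2 THC, x axis), with equal values on the dashed line and open points for genes that did not pass. All 17 genes that passed have the same sign in both batches, from Trim30a at 3.49 in February and 3.31 in November down to Trim13 at -0.76 and -0.73. They were selected by a fit to these same libraries, so shared signs are no separate support.

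Within the batches the direction of all 17 members that passed was the same. The fit that selected them used the same 6 libraries, so shared signs follow largely from the selection and are no separate support. The February pair gave 1.38 for Trim25, 0.89 for Trim21 and 0.97 for Trim12c, and November gave 1.73, 1.30 and 1.43. For the 27 members that did not pass, the sign differed between the batches in 8. The February difference has 1 library on each side and no test.

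Some members outside the interferon-induced list are described here by domain type, and others, Trim47 among them, belong to no type listed. Each type holds few genes, and of all genes tested 14.3% were higher and 13.6% were lower, 27.9% together. Of 3 tested members with NHL repeats, Trim2 and Trim3 were lower and Trim32, a gene of muscle and of neural progenitor division, did not pass (-0.18, interval -0.45 to 0.10). Of 4 tested members with the microtubule-binding COS box, Trim9 was lower, and Trim46 (-0.53, interval -0.95 to -0.10, adjusted p = 0.064), Trim67 (-0.23) and Trim36 (-0.10) did not pass. Trim46, which organises microtubules at the axon initial segment, was at 161, 215 and 163 in TKO and 227, 250.3 and 299 in THC, with no overlap. Of the 4 transcriptional cofactors with a PHD finger and bromodomain, Trim28 was higher and Trim24 (0.27, interval -0.01 to 0.55), Trim33 (0.15, interval -0.11 to 0.41) and Trim66 did not pass. None of the 4 tested members without a RING domain passed. Trim44, the most abundant of them per kb, was at 3133, 3100.5 and 2608 in TKO and 3317, 2213 and 2649 in THC (0.13, interval -0.17 to 0.42). Of 6 members with other C-terminal parts, Trim59 and Trim37 were higher, Trim8 and Trim13 were lower, and Trim23, with an ARF GTPase domain (-0.28, interval -0.54 to -0.01, adjusted p = 0.11), and Trim45 (-0.09) did not pass.

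Among the 27 members that did not pass, 19 had a mean normalized count of 100 or more, and their intervals bound the changes these libraries allow. Trim35, the third member by level per kb in TKO (803, against 927 in THC), was at 4018, 3731 and 3374 in TKO and 3833, 4441 and 4574 in THC (-0.21, interval -0.50 to 0.08). Trim27, a transcriptional repressor gene, was at 1109, 1153 and 1035 in TKO and 682, 842 and 1143 in THC (0.34, interval -0.01 to 0.69), and passed only without THC 3 (0.51, adjusted p = 0.029). Trim68 was at 414, 247 and 344 in TKO and 194, 247 and 245 in THC (0.52, interval 0.05 to 0.99, adjusted p = 0.093), and passed only without TKO 2 (0.74, adjusted p = 0.034). Both thus depended on 1 library. Intervals for Trim11 (-0.16 to 0.48), Trim39 (-0.36 to 0.21), Trim36 (-0.40 to 0.20) and Trim67 (-0.57 to 0.11) include 0, as do those of Trim45 (-0.55 to 0.37) and Trim41 (-0.57 to 0.48). That of Trim62 (-0.66 to -0.01) lies below 0, with an adjusted p of 0.12 by limma. A p above the threshold does not show that a member was unchanged. In 5 of the 27 every TKO library lay above THC (19.4% of all genes tested) and in 3 every TKO library lay below (19.5%). These counts are thus not above the shares over all genes.

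Family members with other symbols lay outside the rule. Pml, an interferon-induced organiser of nuclear bodies, was at 834, 1100.5 and 937 in TKO and 467, 470.3 and 533 in THC (log2 change 0.96, SE 0.14, adjusted p = 0.0003), with its highest value in TKO 2. The midline genes Mid1 (0.26, adjusted p = 0.58) and Mid2 (0.46, adjusted p = 0.087) did not pass. For scale, genes of the interferon list had changes of 2.27 (Irf7, SE 0.31, adjusted p = 0.00021), 2.56 (Isg15, SE 0.22, adjusted p = 7.6e-06) and 2.23 (Ifit1, SE 0.24, adjusted p = 3.8e-05), near that of Trim6. Oasl2 (3.11, SE 0.24, adjusted p = 3.7e-06) and Usp18 (3.46, SE 0.19, adjusted p = 9.5e-07) were nearer to Trim30a.

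The remaining 25 members were not tested. No read was found for 10 (Trim40, Trim42, Trim43b, Trim52, Trim54, Trim55, Trim58, Trim63, Trim72 and Trim80), among them genes of striated muscle such as Trim54, Trim55, Trim63 and Trim72. Another 15 had reads in at least 1 library. The highest single value was 23.2 for Trim14, 19.3 for Trim43a, 13.5 for Trim15 and 11.6 for Trim69, and it was under 10 for 11 others: Trim30b (9.67), Trim43c (7.02), Trim61 (6.83), Trim38 (6.83), Trim10 (5.67), Trim75 (3.01), Trim71 (2.02), Trim50 (2.00), Trim31 (1.95), Trim30c (1.93) and Trim60 (0.944). The interferon-induced list members Trim14, Trim30b, Trim30c and Trim38 are in this group, so the list is described by 12 of its 16 members. The library chemistry does not keep the strand, and 38.0% of the exon bases of Trim14 lie opposite other genes, mainly Nans.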

How the data were processed

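RNA-seq was measured in 6 libraries, 3 TKO and 3 THC. Per the labels' protocols, RNA came from a PicoPure kit (RQN at least 8.0), and at least 35 ng went into SMART-Seq v4 and Nextera XT, which do not keep the strand. The submitters' processing notes name HISAT2, featureCounts, Subread, DESeq2 and GRCm38. Versions, annotation and the rule for multi-mapped reads: not given in the sources used here. The authors' deposited table holds a normalized count per library, a signal scaled by 1 factor per library. In each library the values were whole multiples of 1 number (0.944 to 1.07; 100% of values, tolerance 0.001 read), and division by that number gave the reads behind the count tests named as alternatives. Per the file headers, the table also holds the authors' mean normalized count, log2 fold change with its standard error, p-value, adjusted p-value and a weight, which is a score. All sample columns were mapped, and 23469 genes had no reads.

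From there, limma 3.58.1 (R 4.3.3) was run on log2(normalized count + 1) with batch and genotype as terms and an intensity trend (3 residual and 8.9 prior degrees of freedom). Genes with a normalized count of at least 10 in at least 3 libraries were tested (17278), and adjusted p-values are by Benjamini-Hochberg with a threshold of 0.05. The fit was tested on simulated data. Libraries of a genotype differed beyond counting noise (chi-square over degrees of freedom 15.5 to 44.5), so none was a duplicate. Means and p-values measure the spread between 3 pooled samples a genotype. Alternatives were edgeR 4.0.16 and DESeq2 1.42.0 on recovered reads, other pseudocounts and filters, TMM rescaling, no batch term, a replicate block and leaving out each library.

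The members and all gene lists were chosen with earlier results of these data known. Members named are those that passed, those with a mean of at least 100 that did not, tested members of the interferon-induced list, and untested members with reads. Genes outside the family were named by the same rule, and 1 of these is not reported here. Named beyond the rule, with their values seen, were Trim65 and Trim30e-ps1 for their position, Trim66 for its domain type, Trim16 for a call gained in other settings, and the members with no reads. Coordinates and exon overlaps are from GENCODE M21 (GRCm38) for 69 of 69 members, shared sequence was counted as 50-base windows of a member's transcripts found in another gene, and promoter windows are from RefSeq (GRCm38.p6), which held 53 of the 69 members. No protein sequences were used here.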

Additional observations from a re-analysis of the deposited data

How the results depend on the processing

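The 17 calls among Trim members were refitted under 15 other settings. The total was 13 to 18, with 10 to 13 higher and 3 to 5 lower, and 11 members passed in every setting (Trim3, Trim6, Trim12c, Trim13, Trim21, Trim25, Trim30a, Trim30d, Trim47, Trim56 and Trim59; Trim6 was not fitted under the filter at a mean of 50). No change of direction occurred. The number of lower members was 3 with no batch term and 3 to 5 in fits without 1 library, the lowest without TKO 1, TKO 3 or THC 1. Higher members of the interferon-induced list numbered 8 in all settings except without TKO 2 (7) and under the filter at a mean of 50 (6 of 9 tested). The interferon-stimulated genes had 0 lower members, and 0 to 1 in fits without 1 library: without TKO 1 or THC 1, which leaves the difference to the November libraries, Sp100 was lower. The number of higher members with the TKO order of the interferon list was 4 by mean log2 level and 4 by summed count, and 6 when only the highest library was compared, a setting chosen after seeing the data.

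Of the 17 calls, 6 were lost in at least 1 setting. Trim28 and Trim9 were lost with no filter (adjusted p = 0.073 and 0.080), with no batch term (0.052 and 0.13), and under the replicate block (0.092 and 0.085), and Trim8 with no batch term (0.051); the cause was not tested. With replicate number as a block, 16 members passed, 12 higher and 4 lower. The numbers do not pair the samples (correlation of deviations 0.23, -0.11 and 0.14 for numbers 1, 2 and 3), and not every sample correlated best with its own number. Trim30e-ps1 passed under the block, with edgeR, with DESeq2 and without TKO 2, but it was testable only through its TKO values, since its THC values were all under 10. Trim16 passed as lower without TKO 1 or THC 1 (-1.3 in each), and Trim69 passed as higher with no filter on low values (2.63). Trim69 lay near the floor, at 7.81, 5.37 and 11.6 in TKO and 2.00, 0 and 0 in THC, so its change is only a description. Over all genes tested, 3588 to 4904 passed across settings. Depth limits Trim5, Trim6 and Trim34b of the interferon-induced list, with mean normalized counts under 100 in each genotype. The same holds for tested members outside the list, Trim16, Trim66 and Trim30e-ps1 among them.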
